A study of Mus musculus with 12 samples.

Results

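The MHC class II genes are the subject here: H2-Aa, H2-Ab1 and H2-Eb1, which encode chains of the antigen-presenting molecules; H2-DMa, H2-DMb1, H2-DMb2, H2-Oa and H2-Ob, which encode the peptide exchange factor and its inhibitor; Cd74, the invariant chain; and Ciita, the master activator of the family. They were chosen by symbol, and all 10 had a row among the 25116 rows of a bulk RNA-seq count table. The tumours were allografts of E0771 cells, a triple-negative mammary carcinoma line of the mouse, that had been placed in mammary fat pads of C57BL/6J hosts and were collected at day 22. All hosts were labelled Tie2CreER;ERKi, so that both groups carried an endorepellin knock-in that tamoxifen switches on through a Cre recombinase driven from the endothelial Tie2 promoter. Endorepellin is the C-terminal part of the basement membrane proteoglycan perlecan. The induced group (n = 7) received tamoxifen and the control group (n = 5) a control injection whose content the labels do not give, so an effect of tamoxifen itself and one of the knock-in cannot be told apart. The labels do not say how many mice the tumours came from, and the p-values measure only the spread between these samples.

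MHC class II molecules are pairs of an alpha and a beta chain that display peptides from endocytosed proteins to CD4 T cells. They are made constitutively by dendritic cells, B cells and many macrophages, and other cells can make them after exposure to interferon gamma, in each case through Ciita, which is recruited by factors bound at the X and Y boxes of the class II promoters. Cd74 holds the new molecules and escorts them to endosomes, H2-DM exchanges its remnant for other peptides there, and H2-O, found mainly in B cells, restrains H2-DM.

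Of the 10 genes, 8 lie within the class II region of mouse chromosome 17 (GRCm38, GENCODE M21). In order along the chromosome these are H2-Oa (34092340 to 34095234), H2-DMa (34119541 to 34139101), H2-DMb2 (34143307 to 34151555), H2-DMb1 (34153072 to 34160230), H2-Ob (34238903 to 34254414), H2-Ab1 (34257689 to 34269419), H2-Aa (34282744 to 34287823) and H2-Eb1 (34305867 to 34316674). H2-Aa is on the minus strand and the others are on the plus strand. Ciita is on chromosome 16 (10480059 to 10528418), and Cd74 also lies outside the region. H2-DMb1 and H2-DMb2 are close copies of each other, so reads may have been split between them and their separate levels are uncertain. Part of the exonic sequence of H2-DMa (10.4%) overlaps Brd2 on the other strand, 22.8% of that of H2-Oa overlaps the antisense gene BC051537, and 3.45% of that of Ciita overlaps Dexi. Whether counting used strand was not stated.

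The promoter sequences are shown because the X and Y boxes are the feature that most of these genes share and through which Ciita acts. RefSeq windows from 250 bases before to 50 after the start (GRCm38.p6) were at hand for 7 of the 10 genes, in 8 windows. H2-Ab1, Cd74 and Ciita had no window. The letters searched on both strands were AACNNATG for the core of the X box and TGATTGG for the Y box, chosen after the windows had been seen; these letters do not overlap in the sequences below. The capitals mark the matches, and each line reads 5′ to 3′ along the strand of the gene.
H2-Eb1, chr17:34305770-34305820, plus strand: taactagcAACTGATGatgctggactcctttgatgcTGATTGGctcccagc
H2-Ob, chr17:34238812-34238860, plus strand: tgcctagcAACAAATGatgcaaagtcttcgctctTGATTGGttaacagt
H2-DMb2, chr17:34145120-34145171, plus strand: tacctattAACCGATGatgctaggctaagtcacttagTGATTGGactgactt
H2-Aa, chr17:34287859-34287906, minus strand: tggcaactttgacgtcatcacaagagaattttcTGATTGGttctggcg

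The sequences of H2-Eb1, H2-Ob and H2-Aa lie upstream of the GENCODE gene, and that of H2-DMb2 lies in an intron of its GENCODE gene, which begins farther upstream than the RefSeq start. The X core lay 89 bases before the start in H2-Eb1, 85 in H2-Ob and 121 in H2-DMb2, and the Y box followed it after 20, 18 and 21 bases. H2-DMb1 had the same arrangement, with the X core 92 and the Y box 63 bases before the start. In H2-Aa the Y box lay 50 bases before the start and in H2-Oa 45 bases, without these X letters in the window. H2-DMa had 2 windows, for different starts, and neither held these letters. The Y box letters were in 6 of the 8 windows, against 7.82% of 32851 windows of all genes, and the X core letters in 4 of the 8, against 8.86%. An X core followed within 40 bases by a Y box on the same strand was found in 4 of the 8, and in 14 windows (0.0426%) of all. The 14 include these 4 and a window of H2-Eb2, a further class II gene. Because the letters were chosen after the members' windows had been seen, these shares do not test how particular the letters are to class II genes. A match describes letters and is not a measured binding site.

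**Figure D1:**
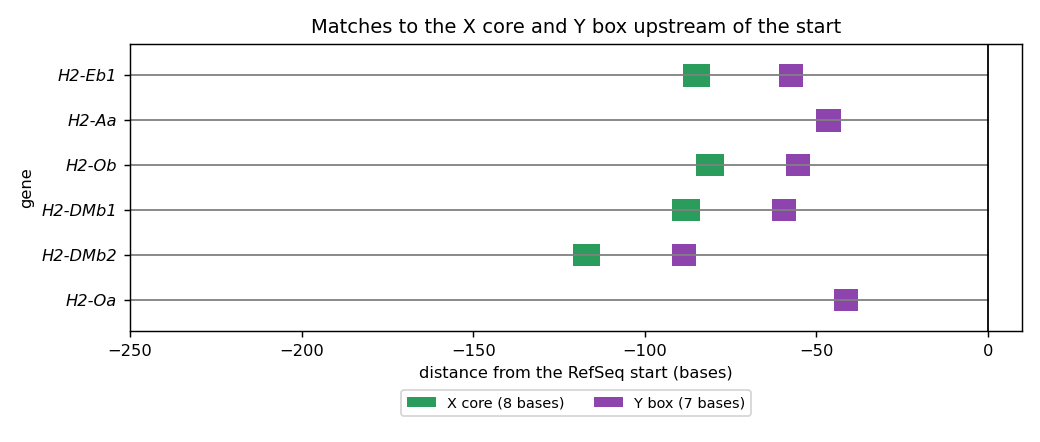
Position of the X core (green, 8 bases) and the Y box (purple, 7 bases) in the windows of the 6 class II genes with a match, in bases from the RefSeq start (0, vertical line). Where both are present, the X core lies upstream of the Y box, and H2-DMb2 has the pair farthest from its start.

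Library totals ranged from 18993192 to 28372821 counts, and 9 of the 10 genes passed the filter on low counts. The first principal component of all genes (45.6% of the variance) set control 1, control 2, induced 3 and induced 4 apart from the other 8 tumours. Genes of epithelium, the tissue from which a mammary carcinoma line derives, were low: the summed CPM of Krt8, Krt18, Epcam and Cdh1 ranged from 1.68 to 5.58 in control and from 2.03 to 4.39 in induced tumours. Values below are CPM (counts scaled to library size with TMM factors), fold changes are log2, induced minus control, from edgeR's quasi-likelihood test, and a gene was called at a Benjamini-Hochberg adjusted p under 0.05.

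The classical chains stood several-fold higher in 1 control tumour than in the other 11, and at like levels in both groups apart from it. H2-Aa, the alpha chain of the I-A molecule, measured 137.8, 10.2, 19.9, 20.8 and 16.9 CPM in control 1 to control 5, and from 6.72 to 30.0 CPM with a median of 20.4 CPM in the induced tumours. Control 1 was at 6.93 times the median of the other tumours, and the remaining 4 control values fell within the induced range. H2-Ab1, its beta chain partner, measured 131.9, 7.74, 20.5, 18.7 and 17.7 CPM in the control tumours, and from 6.72 to 31.4 CPM with a median of 17.8 CPM in the induced ones. H2-Eb1, the beta chain of I-E, measured 124.8, 7.53, 23.4, 18.9 and 16.1 CPM in the control tumours, and from 6.22 to 34.1 CPM with a median of 19.8 CPM in the induced ones. For all 3 genes the groups overlapped, induced 6 and induced 4 came next after control 1, and control 2, induced 3 and induced 7 were the 3 lowest. The alpha chain gene of I-E, sought as H2-Ea and H2-Ea-ps, had no row. The values of H2-Eb1 therefore do not show that an I-E molecule was made.

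Cd74 was the most abundant of the 10 genes in every tumour. It measured 260.9, 22.5, 33.3, 49.3 and 50.001 CPM in control 1 to control 5, and from 16.7 to 51.7 CPM with a median of 36.9 CPM in the induced tumours. Ciita was at low levels with the same high tumour, at 8.49, 0.74, 0.98, 1.59 and 0.90 CPM in the control tumours and from 0.30 to 2.22 CPM with a median of 0.90 CPM in the induced ones. Control 1 stood at 9.46 times the median of the others for Ciita and 7.07 times for Cd74. In both genes the groups overlapped.

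The peptide exchange genes stood less far above the other tumours in control 1. H2-DMa, the alpha chain of H2-DM, measured 20.2, 4.59, 9.09, 8.35 and 7.45 CPM in control 1 to control 5, and from 2.78 to 9.88 CPM with a median of 6.57 CPM in the induced tumours. H2-DMb1, a beta chain of H2-DM, measured 29.2, 11.3, 11.7, 13.3 and 10.1 CPM in the control tumours, and from 6.93 to 21.6 CPM with a median of 12.3 CPM in the induced ones. Control 1 was 2.72 times the median of the others for H2-DMa and 2.42 times for H2-DMb1, against 6.61 to 7.40 times for the 3 classical chains.

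For H2-DMb2, H2-Ob and H2-Oa, control 4 was the highest tumour and control 1 ranked 2nd or 3rd. H2-Ob, the beta chain of the inhibitor H2-O, measured 1.77, 0.32, 0.64, 4.22 and 3.06 CPM in control 1 to control 5, and from 0.26 to 1.397 CPM with a median of 0.88 CPM in the induced tumours. H2-DMb2, the second H2-DM beta chain, measured 2.81, 0.53, 0.83, 3.27 and 2.45 CPM in the control tumours, and from 0.65 to 1.5 CPM with a median of 0.90 CPM in the induced ones. Control 4, control 5 and control 1 were the 3 highest tumours for both genes, above every induced tumour, while control 2 and control 3 lay within or below the induced range. H2-Oa, the alpha chain of H2-O, was counted only 2 to 14 times per library and was not tested; its levels were 0.49, 0.11, 0.24, 0.59 and 0.42 CPM in the control tumours and from 0.10 to 0.48 CPM with a median of 0.28 CPM in the induced ones. For H2-Oa the order rested on 13 counts in control 4, 14 in control 1 and 13 in induced 4, and induced 4 was above control 5. Control 4 was the highest tumour for these 3 genes and control 1 for the other 7. Over all genes tested, control 1 was the highest tumour in 16.3%, and the share for control 4 was not counted.

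**Figure D2:**
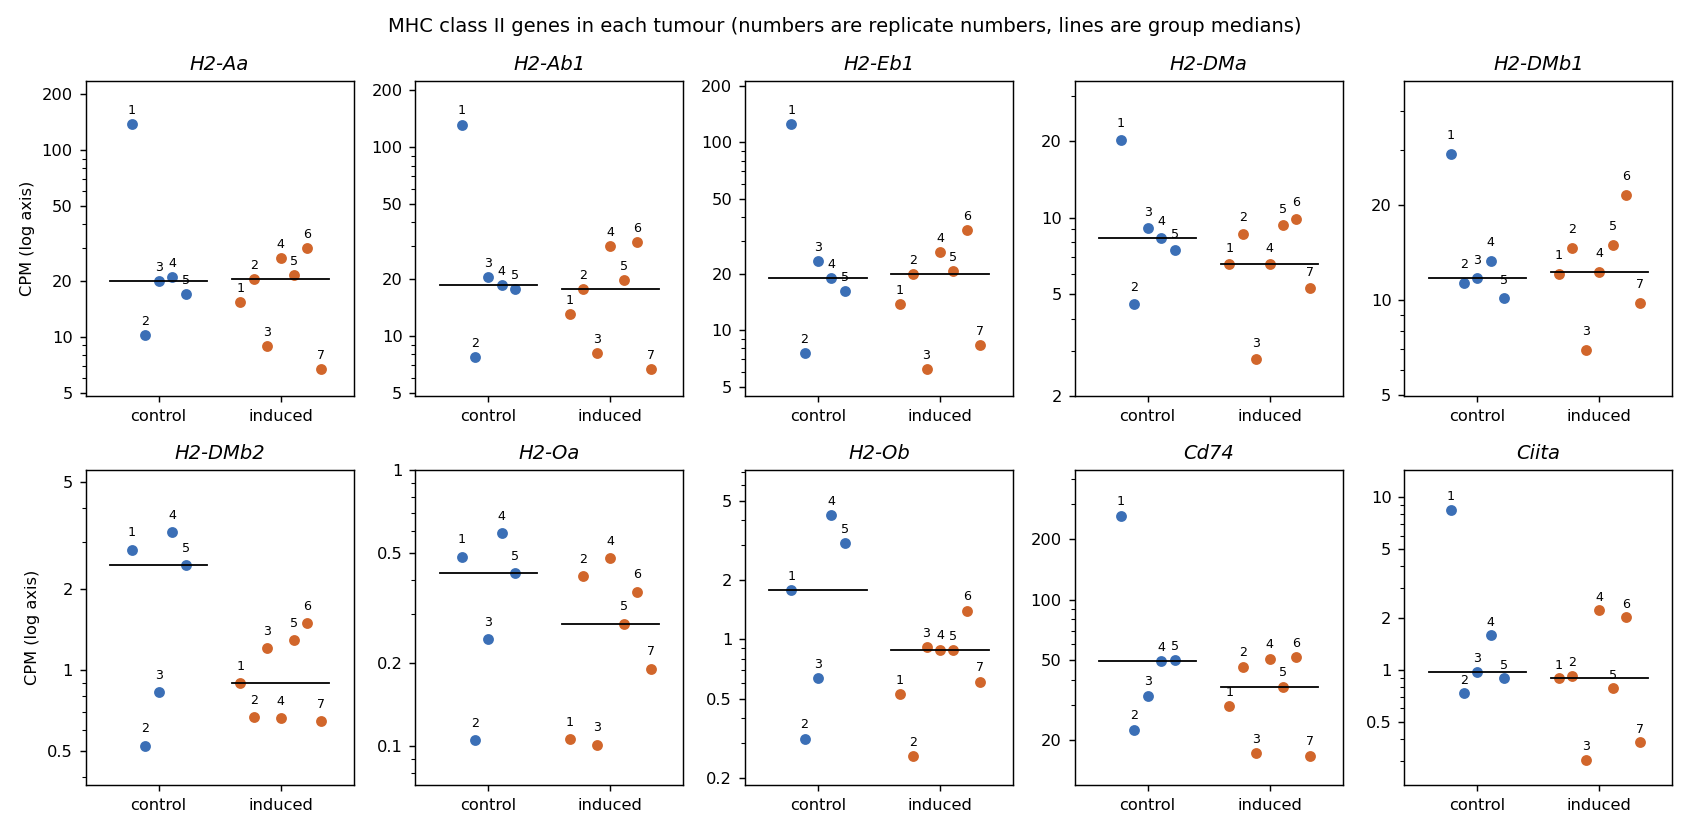
CPM (log axis, scale set per panel) of each class II gene in the 5 control (blue) and 7 induced (orange) tumours, with replicate numbers beside the points and lines at the group medians. Control 1 stands alone for the classical chains, Cd74 and Ciita, whereas control 4 leads in H2-DMb2, H2-Oa and H2-Ob, where control 1 ranks 2nd or 3rd.

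Set on a common scale of CPM per kilobase of exonic sequence, the level of Cd74 (median 24.8 over the 12 tumours) came first, followed by H2-Eb1 (9.95), H2-DMb1 (7.25), H2-Ab1 (7.11), H2-Aa (5.30), H2-DMa (2.29), H2-DMb2 (0.60), H2-Oa (0.23), H2-Ob (0.16) and Ciita (0.096). The exonic length counts all annotated transcripts, so these levels are approximate. Cd74 exceeded H2-Eb1 in 12 of 12 tumours, H2-Ab1 exceeded H2-Aa in 12 of 12, and H2-Aa, H2-DMa and H2-DMb2 each exceeded the next gene in 12 of 12. Other neighbours changed places: H2-Eb1 was above H2-DMb1 in 8 tumours, H2-DMb1 above H2-Ab1 in 8, H2-Oa above H2-Ob in 7 and H2-Ob above Ciita in 8.

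No class II gene was called between induced and control tumours, and the genes' fitted differences depended on 3 control tumours with high values of some of these genes. The log2 fold change was below 0 for 9 of the 9 genes tested, where 50.2% of all genes tested lay below 0. It was -1.16 ± 0.59 (SE, here and for the next values) for H2-Aa, -1.12 ± 0.62 for H2-Ab1 and -1.05 ± 0.61 for H2-Eb1. Cd74 was at -1.23 ± 0.54 and Ciita at -1.24 ± 0.67. H2-DMa was at -0.51 ± 0.36 and H2-DMb1 at -0.20 ± 0.30. H2-DMb2 was at -1.01 ± 0.43 and H2-Ob at -1.35 ± 0.55. The adjusted p by edgeR was 0.999886 for all 9. In bulk tumours, fewer cells of a type and less RNA per cell cannot be told apart.

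None of the 9 was called, as for all 15199 genes tested (0.0% called). Of these, 324 genes (2.13%) had an unadjusted p under 0.05 by edgeR and 995 by limma-voom with sample quality weights. By DESeq2 there were 607, of 24895 genes with a p-value. DESeq2 and limma-voom each called 0 genes. Unadjusted p-values under 0.05 with lower levels in induced tumours occurred for 3 class II genes, Cd74, H2-DMb2 and H2-Ob, against 1.54% of all genes. The median log2 fold change was -1.12 over the 9 genes and close to 0 (-0.00083) over all genes tested. In 0 of the 10 genes did the groups fail to overlap (0.0592% of all genes). In the authors' deposited table, all 10 genes had an adjusted p of 0.993963, with log2 fold changes of -1.35 for H2-Ob, -1.01 for H2-DMb2, -1.23 for Cd74 and -0.41 for H2-Oa.

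Leaving out control 1 turned the direction of 5 of the 9 genes. Without it, H2-Aa was at 0.12, H2-Ab1 at 0.16, H2-Eb1 at 0.16, H2-DMb1 at 0.17 and Ciita at 0.034, and 4 of 9 lay below 0 (50.6% of all genes) with a median of 0.034. Cd74 then lay at -0.13 and H2-DMa at -0.08, whereas H2-DMb2 was at -0.85 and H2-Ob at -1.40. Leaving out control 4 and control 5 instead was tried after the values had been seen. H2-Ob then moved to -0.21 and H2-DMb2 to -0.50, while H2-Aa (-1.59), Cd74 (-1.56) and Ciita (-1.65) moved away from 0. In that fit 9 of 9 were below 0 (48.4% of all genes). Both tumours were among the 3 highest for H2-Ob and H2-DMb2. The move of these 2 genes toward 0 was therefore fixed by the choice of tumours. Without all 3 of these tumours, also tried afterwards, 0 of 9 were below 0 (47.6% of all genes) and the median was 0.33, with H2-Ob at 0.73, H2-DMb2 at 0.54 and H2-Aa at 0.30. That last contrast sets only control 2 and control 3 against the 7 induced tumours. The highest tumour of each gene, control 1 or control 4, is then left out, and no induced tumour is. The fold changes rise by construction, so these values do not measure an effect of induction. Within the 8 tumours on one side of the first principal component, 8 of 9 lay below 0 (51.1% of all genes), with a median of -0.11.

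**Figure D3:**
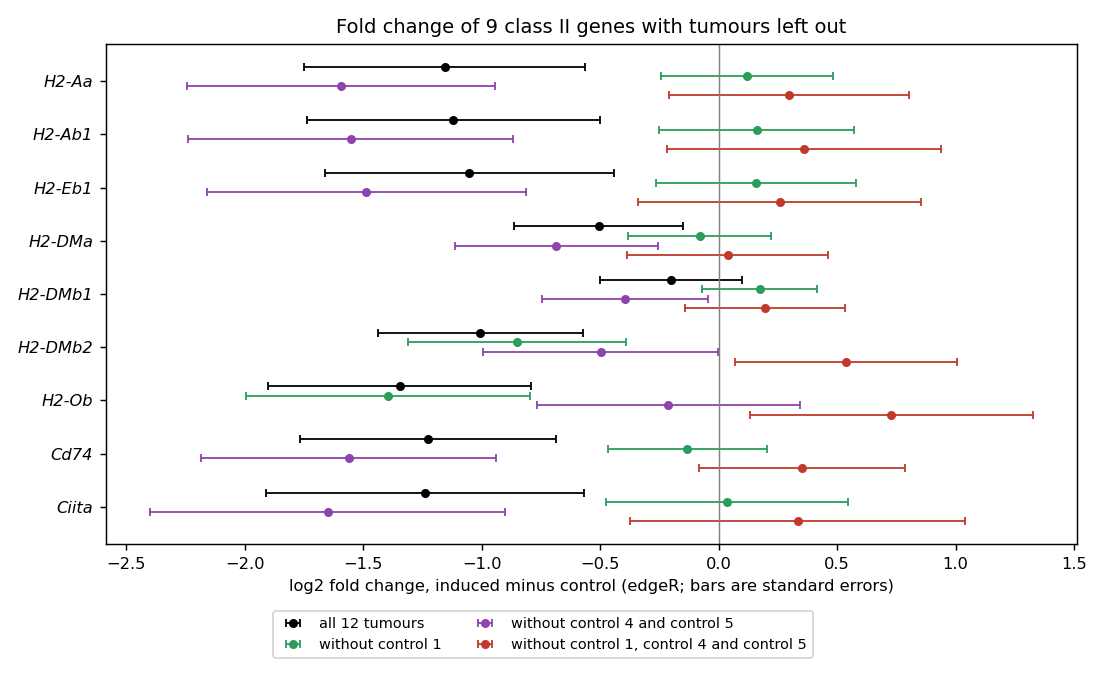
Log2 fold change (induced minus control, edgeR, bars are standard errors) of 9 class II genes with all 12 tumours and with control tumours left out. The classical chains, Cd74 and Ciita move to near 0 without control 1, whereas H2-Ob and H2-DMb2 move toward 0 without control 4 and control 5. Control 4 and control 5 were left out after their high values of H2-Ob and H2-DMb2 had been seen.

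Within tumours, the alpha and beta chains were at nearly the same proportion to each other, while H2-DMa was lowest relative to H2-Ab1 in the tumour with the most H2-Ab1. The log2 ratio of H2-Aa to H2-Ab1 ranged from -0.17 to 0.39 over the tumours, and was 0.06 in control 1. The difference between the groups was -0.04 (95% interval -0.25 to 0.17; exact permutation test p = 0.712). H2-Eb1 to H2-Ab1 gave a difference of 0.03 (-0.22 to 0.28; exact permutation p = 0.798), and Cd74 to H2-Ab1 one of -0.18 (-0.57 to 0.22; exact permutation p = 0.330). The interval for H2-Aa to H2-Ab1 excludes a group difference beyond 0.25 in either direction on the log2 scale.

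For H2-DMa to H2-Ab1, control 1 was lowest at -2.70, induced 4 came next at -2.17 and induced 7 was highest at -0.35. The group difference was 0.15 (-0.65 to 0.98; exact permutation p = 0.721). H2-Ob to H2-DMa, the inhibitor against the exchange factor, was highest in control 4 (-0.97), control 5 (-1.26) and induced 3 (-1.52) and lowest in induced 2 (-4.66), with a group difference of -0.47 (-2.01 to 0.99; exact permutation p = 0.495). This difference was -0.073 without control 4, -0.15 without control 5, -0.21 without induced 2 and between -0.75 and -0.41 without each of the other tumours. It was -1.45 within the 8 tumours with positive values on the first principal component. Against Ptprc, the pan-leukocyte gene CD45, H2-Ab1 differed by 0.13 between the groups (-0.82 to 1.16; exact permutation p = 0.794). None of the 6 ratios passed, with Benjamini-Hochberg adjusted exact permutation p-values of 0.798 for all, and the smallest p this design allows is 0.00126.

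Among the 8 tumours with positive values on the first principal component, H2-Ob and H2-DMb2 varied together, as did the classical chains with each other. By exact permutation tests with Benjamini-Hochberg adjustment over the 45 pairs of genes, 12 pairs passed on Pearson's r and 5 on Spearman's rho. H2-Ab1 and H2-Eb1 passed on both (r = 0.98, adjusted p = 0.00223; rho = 0.98, adjusted p = 0.00893; exact permutation), as did H2-Eb1 and H2-DMa (r = 0.96, adjusted p = 0.00223; rho = 0.98, adjusted p = 0.00893; exact permutation). H2-Aa and H2-Ab1 passed on r alone (r = 0.98, adjusted p = 0.00399; rho = 0.86, adjusted p = 0.0689; exact permutation). H2-DMb2 and H2-Ob also passed on r alone (r = 0.96, adjusted p = 0.00246; rho = 0.88, adjusted p = 0.0543; exact permutation), with r = 0.84 without control 4 and control 5, the tumours farthest from the median of H2-DMb2. H2-Ob with the classical and H2-DM chains gave r of 0.24 for H2-Aa, 0.29 for H2-Ab1, 0.17 for H2-Eb1, 0.15 for H2-DMa and -0.01 for H2-DMb1, none of which passed.

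H2-Ab1 was also set against 9 genes. Ciita (r = 0.87, rho = 0.69) and Cd74 (r = 0.87, rho = 0.55) both had an adjusted exact permutation p of 0.0551 for r. The same 2 relations were among the 12 that passed over the 45 pairs, with an adjusted exact permutation p of 0.0479 for r, so that they lay on either side of the threshold according to the family of tests. Without induced 7 and induced 6, r with Ciita was 0.15 and r with Cd74 was 0.39, and without induced 7 and induced 1, the tumours farthest from the median of Cd74, the latter was 0.20; within the 8 tumours these relations rested on such tumours. Over the 11 tumours without control 1 both passed, with r = 0.87 for Ciita (adjusted permutation p = 0.00211) and r = 0.91 for Cd74 (adjusted permutation p = 0.0018). Col1a1, a fibroblast collagen, had r = 0.74 (adjusted exact permutation p = 0.0637) and 0.75 without its 2 farthest tumours. Ptprc gave r = 0.65 but rho = -0.05, and Cd79a, a B cell receptor gene, r = 0.03. Adjusted over these 9 relations in the 8 tumours, none passed.

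Some of the other genes of the class II pathway also stood high in control 1, and the promoter-binding factors did not. Of the 7 transcription factors that bind class II promoters, 3 were fitted lower and 4 higher in induced tumours, 0 were called, and the median log2 fold change was 0.00. Rfxank, a subunit of the X box factor RFX, averaged 14.8 ± 2.13 CPM (SD, n = 5) among controls and 13.7 ± 0.61 CPM (SD, n = 7) among induced tumours. Creb1, which binds beside the X box, averaged 61.8 ± 4.08 CPM (SD, n = 5) and 66.2 ± 6.83 CPM (SD, n = 7). Of 8 genes of interferon gamma signalling, 6 were fitted lower and 2 higher (0 called, median -0.15). Ifng itself, at 6.80 times the median of the others in control 1, reached 3.398 CPM there and 2.12 CPM in induced 6, between 0.19 and 1.22 CPM in 9 tumours, and at 0 in induced 3. Irf1, a target of that pathway, was likewise highest in control 1 (196.2 CPM) and induced 6 (171.6 CPM). Socs1, of the same list, was not: it was at 35.5 CPM in control 1, 0.84 times the median of the others, and highest in induced 6 (59.9 CPM).

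Of 9 genes of class II processing, 7 were fitted lower and 2 higher (0 called, median -0.15). In control 1, Ctss, the cathepsin that cleaves Cd74, was at 3.99 times the median of the others. March1, a ubiquitin ligase that removes class II molecules from the surface, reached 30.6 CPM in control 1 and 15.5 CPM in induced 4, against 3.17 to 12.9 CPM elsewhere. Ifi30, the lysosomal thiol reductase, averaged 98.4 ± 4.07 CPM (SD, n = 5) among controls and 88.8 ± 11.3 CPM (SD, n = 7) among induced tumours. Of 6 genes of class II recognition and costimulation, 6 were fitted lower (0 called, median -0.35), and Cd4, the T cell coreceptor for class II, was at 5.201 CPM in control 1 and from 0.71 to 2.12 CPM in the others.

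Genes that lie in the same region of chromosome 17 but serve other functions varied to different degrees. Of 6 tested, 2 were fitted lower and 4 higher (0 called, median 0.06). Tap2, a subunit of the peptide transporter for class I molecules, ranged from 135.5 to 209.5 CPM with control 1 at 167.9 CPM, and Brd2, a chromatin reader, ranged from 232.9 to 313.0 CPM with control 1 at 267.7 CPM. Psmb9, a subunit of the immunoproteasome, ranged from 59.7 to 158.8 CPM with control 1 at 125.4 CPM, and Notch4, an endothelial receptor, from 8.85 to 19.1 CPM with control 1 at 13.4 CPM. Btnl2, a butyrophilin-like gene too low to be tested, was at 1.25 CPM in control 1, at 0 in induced 3 and at most 0.50 CPM in the others. H2-Eb2, a further class II gene, was at 0.19 to 1.32 CPM and was not tested.

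Markers of several other cell types were highest in control 1, the tumour with the highest classical chains, but did not follow these chains in every tumour. Control 2, among the 3 lowest tumours for the classical chains, had the third highest sum of macrophage genes (319.9 CPM), and induced 6, next after control 1 for the chains, had a sum of 206.6 CPM. In control 1 the pan-leukocyte genes Ptprc, Cd53, Laptm5 and Coro1a summed to 634.2 CPM, against 143.3 to 210.1 CPM in the other control and 79.6 to 280.5 CPM in the induced tumours; 4 of 4 were fitted lower in induced tumours (0 called, median -0.66). The macrophage genes summed to 1256 CPM in control 1, 698.6 CPM in induced 4 and 138.1 to 319.9 CPM elsewhere, with 7 of 9 fitted lower (0 called, median -0.53). Adgre1, which encodes F4/80, reached 181.0 CPM in control 1 and 67.5 CPM in induced 4. The dendritic cell genes summed to 151.9 CPM in control 1 and 45.5 to 96.4 CPM elsewhere, with 6 of 7 tested fitted lower (0 called, median -0.51), and Ccr7, the homing receptor of mature dendritic cells, was at 11.7 CPM in control 1 and at most 2.79 CPM elsewhere.

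The T cell genes summed to 39.2 CPM in control 1, 12.4 CPM in induced 6, 7.72 CPM in control 3 and at most 3.50 CPM in the others, and 1 of the 7, Cd2, could be tested. The T cell receptor gene Cd3g was at 0 in control 5 and induced 4. The fibroblast genes summed to 3206 CPM in control 1, 1991 CPM in induced 4 and 542.0 to 1201 CPM elsewhere, with 6 of 6 fitted lower (0 called, median -1.01). The part of these cell types in the class II levels was not tested.

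Control 4 and control 5, the highest tumours for H2-Ob, also led in several B cell genes. Ms4a1, which encodes CD20, reached 7.67 CPM in control 4 and 4.90 CPM in control 5, and was at most 2.07 CPM in the other 10. Cd79b, a B cell receptor subunit, was at 4.63 and 4.24 CPM in them and 3.02 CPM in control 1. Cr2, the complement receptor of B cells and follicular dendritic cells, was at 11.03 and 9.66 CPM in them and at most 2.12 CPM elsewhere. Over the 7 B cell genes the sum ranged from 40.9 to 72.6 CPM in control and from 43.4 to 60.4 CPM in induced tumours, most of it Pax5, and 6 of 7 were fitted lower (0 called, median -1.11).

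In the same 8 tumours as above, H2-Ob was set against the 7 B cell genes. The comparison was chosen after their values had been seen, so it is a description and no p-value is given. Apart from control 4 and control 5, H2-Ob had 5 to 27 counts in these tumours. Pearson's r was 0.98 for Cd79b (rho = 0.98), and without control 4 and control 5 r was 0.94. Ms4a1, Blk and Cd79a had r of 0.96, 0.95 and 0.94. For Ebf1 (r = 0.60) and Pax5 (r = -0.51) it was lower.

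**Figure D4:**
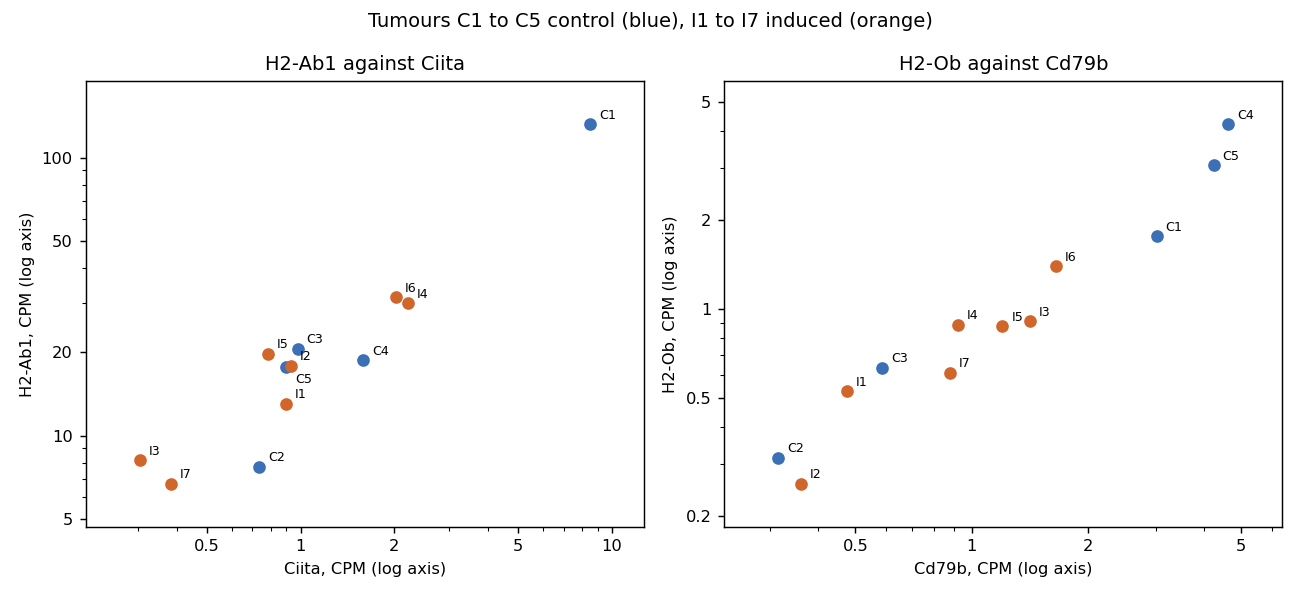
CPM (log axes) of H2-Ab1 against Ciita (left) and of H2-Ob against Cd79b (right) in the control (C1 to C5, blue) and induced (I1 to I7, orange) tumours, 1 point per tumour. Control 1 is far from the other points on the left, while on the right control 4 and control 5 are the highest and control 1 is next.

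Over the whole table, the genes whose levels most resembled the mean of H2-Aa, H2-Ab1, H2-Eb1 and Cd74 over the 12 tumours were ranked by Pearson's r among 10953 genes, as a description. Basp1, a membrane-associated signalling protein, came first (r = 0.96, rho = 0.84; 0.91 without control 1), followed by Irf5, an interferon regulatory factor of myeloid and B cells (r = 0.95, rho = 0.92; 0.90 without control 1), and Ptpn22, a leukocyte phosphatase (r = 0.94, rho = 0.80). The others of the first 10 were Arrb2 and C1ra (each r = 0.94), Tent5c (0.94), Zbp1, Smarca2 and Rinl (each 0.93), and Gpr132 (0.92). All 12 points include control 1, which was above the median of the others for each of these genes, by 1.42 times for Arrb2 to 4.06 times for Basp1.

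**Figure D5:**
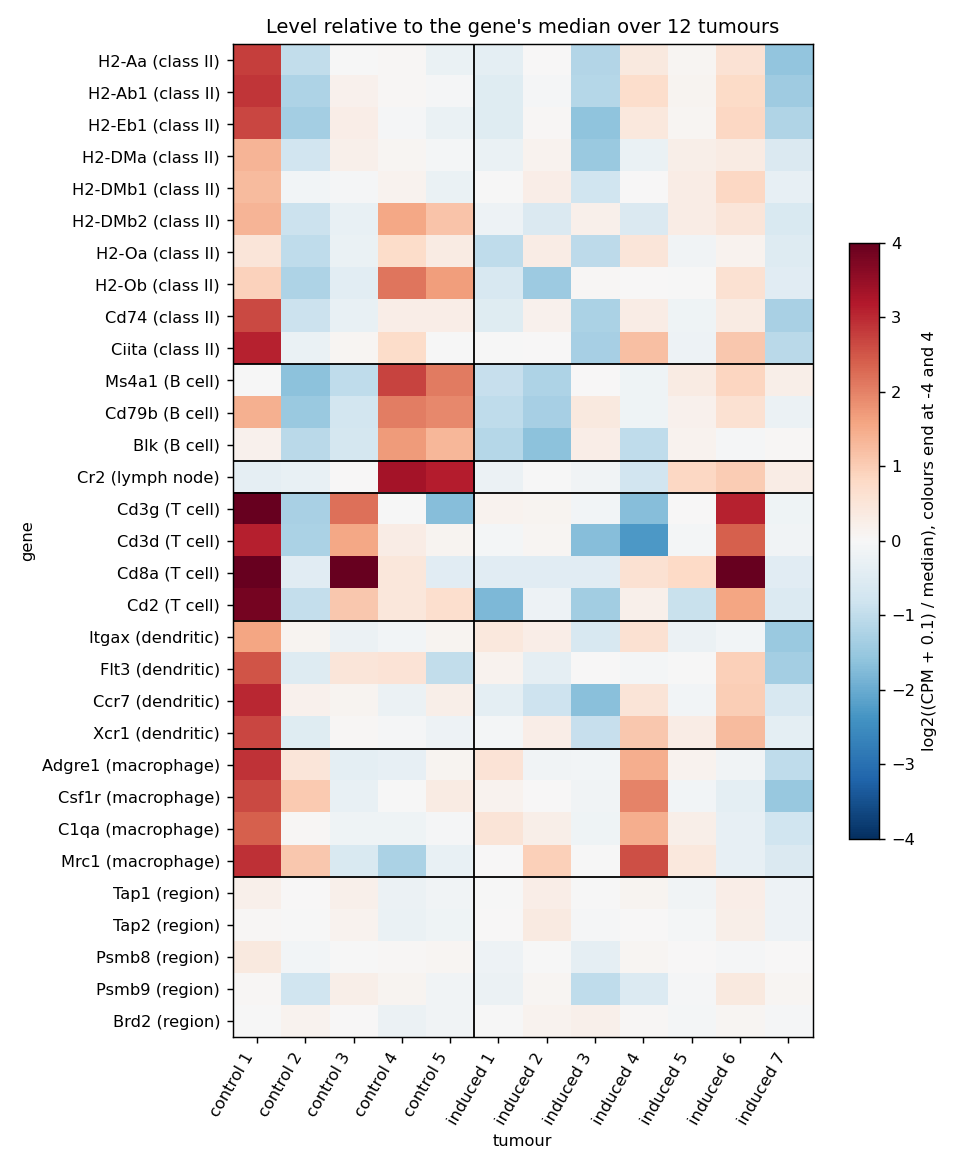
Level of class II genes and of genes of other cell types and of the class II region in each tumour, as log2 of (CPM + 0.1) over the gene's median of the 12 tumours, with colours ending at -4 and 4. The classical chains, Cd74 and Ciita are highest in control 1, as are the macrophage, dendritic and T cell genes shown. H2-Ob is highest in control 4 and control 5, as are Cr2 and the B cell genes shown. The rows show only part of each list. Among listed genes not shown, Clec9a is lowest and Ebf1 and Cxcl13 are highest in control 1, Cd163 is highest in induced 4, and Pax5 is lowest in control 4. H2-DMb2 is highest in control 4, control 1 and control 5. The 5 genes of the region shown are not highest in control 1 except Psmb8.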

How the data were processed

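Gene expression was measured by RNA-seq in 12 tumours, from 1.3 ug of total RNA with a SMARTER mRNA-Seq kit, per the labels' protocols. The authors deposited raw counts per gene and rlog values on the log2 scale, with their own log2 fold change, a signed fold change (unit score) and p-values, per the file headers. The genome build was GRCm38 (mm10), per the submitters' processing notes. Aligner, counter, annotation and strand were not given in the sources used here. Groups came from the titles and the treatment label, because the growth protocol describes adipogenic cells and not tumours.

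Counts were fitted with edgeR 4.0.16 (R 4.3.3; filterByExpr, minimum count 10; TMM; robust quasi-likelihood F test, two-sided; Benjamini-Hochberg over 15199 genes). The common biological coefficient of variation was 32.1%. Log2 CPM used a prior count of 2. The ratios used two-sided exact permutation tests over 792 splits, and correlations exact permutation of the pairings; intervals are 95%. The fit was tested on simulated counts: 61 of 100 genes changed 2-fold and 89 of 100 changed 4-fold were called among 15346. In it, 6 unchanged genes were called. Simulated tumours of a group shared a mean per gene, without a single high tumour or the split along the first principal component. These shares therefore do not give the power in the real tumours. Alternatives were other size factors and filters, DESeq2 1.42.0, limma-voom (limma 3.58.1), a replicate block and tumours left out. The named genes were all members, up to 4 genes of each list with the smallest p, and the 10 genes most like the classical chains; others, and the genes shown for H2-Ob, were chosen after their values were seen. The members and lists were chosen with earlier results of these data known. Symbols were restored from Ensembl IDs for 189 rows. The rlog values were not tested. Values of some genes of the lists are not reported here.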

Additional observations from a re-analysis of the deposited data

Results flagged for a closer look

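Over 32 groups of values, each a gene or ratio in 1 treatment group, control 1 stood far from the other 4 control tumours in 3. Its log2 CPM of H2-Aa was 7.11, its log2 CPM of H2-DMb1 was 4.87, and its log2 ratio of H2-DMa to H2-Ab1 was -2.70. In each, its gap to the nearest control tumour took up more of the group's range than Dixon's 95% critical value of 0.71 for 5 tumours, with shares of 0.73, 0.74 and 0.75. Chance alone flags about 1 in 20 such groups, and the values share genes and the same tumour. H2-Ab1, H2-Eb1, Cd74 and Ciita, which were at 3.66 to 5.05 times the next highest tumour in control 1, did not pass the critical value on the log scale.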

How the results depend on the processing

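No gene was called under any alternative. The log2 fold changes of the class II genes kept their direction under other size factors, other filters, a non-robust fit and DESeq2. With limma-voom and sample quality weights, which count more variable tumours less, their median was -0.23 and H2-DMb1 turned to 0.20. DESeq2 and this limma-voom fit called 0 genes. Leaving out 1 tumour at a time, 4 to 9 of the 9 genes were below 0 and the median ranged from -1.40 to 0.034. Only control 1 turned any gene; the ranges were -1.42 to 0.12 for H2-Aa, -1.40 to 0.16 for H2-Ab1, -1.34 to 0.16 for H2-Eb1, -0.36 to 0.17 for H2-DMb1 and -1.54 to 0.034 for Ciita, the upper ends being those without control 1. Without control 4 alone H2-Ob was at -0.89. Without control 1 and control 2 the median was -0.11 and H2-DMb1 0.16, and without induced 3 and induced 4 as well the median was -0.11 and H2-DMb1 0.31. Without control 1, control 4 and control 5, added after the data were seen, 0 genes were below 0 and the median was 0.33. The values were H2-Aa 0.30, H2-Ab1 0.36, H2-Eb1 0.26, H2-DMa 0.037, H2-DMb1 0.20, H2-DMb2 0.54, H2-Ob 0.73, Cd74 0.35 and Ciita 0.33. This setting leaves out the highest tumour of every gene and no induced tumour, so the fold changes rise by construction.

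No ratio passed under any alternative, and those near 0 changed sign. Leaving out 1 tumour at a time, the differences ranged from -0.079 to 0.036 for H2-Aa to H2-Ab1, -0.018 to 0.097 for H2-Eb1 to H2-Ab1, -0.18 to 0.31 for H2-DMa to H2-Ab1, -0.28 to 0.32 for H2-Ab1 to Ptprc, -0.75 to -0.073 for H2-Ob to H2-DMa (nearest 0 without control 4) and -0.31 to -0.10 for Cd74 to H2-Ab1. Without control 1 and control 2 the first 4 were 0.048, -0.0021, -0.069 and -0.16, and without induced 3 and induced 4 as well H2-Aa to H2-Ab1 was 0.080. With control 1 left out and the other 11 tumours kept, 3 of the 9 relations of H2-Ab1 passed (among them Ciita with r = 0.87 and Cd74 with r = 0.91). These 11 tumours lie on both sides of the first principal component, and the permutations ignored that split.

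Tumours with the same replicate number did not deviate together (correlations -0.31, -0.51, -0.51, -0.53 and 0.21 for numbers 1 to 5). These values cannot exclude that a number marks a shared origin. With a replicate block the median was -0.50, 0 genes were called, 108 had an unadjusted p under 0.05 by edgeR, and the ratio differences were 0.00043 for H2-Aa to H2-Ab1, -0.047 for H2-Eb1 to H2-Ab1 and -0.079 for H2-Ab1 to Ptprc, over 5 pairs that cannot give an exact p below 0.0625. The cause of these changes was not tested. Depth limits H2-Oa, at 2 to 14 counts.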

Other observations

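Several immune genes did not follow their cell type. Pax5, a B cell transcription factor, was at 35.7 to 55.6 CPM in all 12 tumours, with control 4 the lowest, whereas Ms4a1 stayed at or below 7.67 CPM. Clec9a, a dendritic cell receptor, was lowest in control 1 at 6.69 CPM and ranged from 8.42 to 19.8 CPM in the others, while Xcr1, Flt3 and Ccr7 were highest in control 1. The muscle genes Acta1, Myh4, Ckm, Tnnt3 and Mylpf summed to between 3.36 and 442.6 CPM in control and between 11.03 and 404.5 CPM in induced tumours.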
